A study of Homo sapiens with 28 samples.

Results

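H3K36me2 was mapped in 4 cell lines that differ in NSD2, and 468 windows of 10 kb lay at least 50% under H3K36me2 peaks in every one of them. These windows, 4.68 Mb in all, were taken from 287408 windows on the autosomes, counted from position 0 of each chromosome, with peaks less than 1 kb apart joined. Before that, 93 blocks of 1 Mb were left out, in which each of the 12 peak lists of the study covered at least 10% of the bases. The blocks held another 4840 of the 5308 windows covered in all 4 lists. The 468 windows were 0.168% of the 278108 windows outside the blocks. Because the H3K36me2 lists chose the windows, their H3K36me2 values are descriptions only.

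The cells were KMS-11, a human multiple myeloma line with plasma cell identity, and all of them carried the labelled genotype WHSC1(+/-), WHSC1 being an older name of NSD2. The 4 conditions were TKO cells expressing D1240A NSD2, TKO cells expressing F1295A NSD2, TKO cells expressing wild type NSD2 (WT), and TKO cells themselves. D1240A and F1295A are single amino acid changes in NSD2. The labels do not say how the forms were introduced, or whether each line is 1 clone. H3K36me2, H3K27ac and H3K27me3 were measured by ChIPmentation, a chromatin immunoprecipitation in which a transposase adds the sequencing adapters, in 24 immunoprecipitates (2 replicates for each condition and mark), and 4 inputs made up the 28 samples. Each of the 12 deposited peak lists was called on both replicates together, so there is no replicate error and no test. The inputs were not used in calling and are not analysed here.

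NSD2 is a histone methyltransferase that places H3K36me2, a mark that usually lies in broad domains within and between genes. In myeloma with the t(4;14) translocation, which KMS-11 carries, NSD2 is overexpressed from the immunoglobulin heavy chain locus. H3K27me3 is placed by Polycomb repressive complex 2 and is known for silenced genes, and methylation of H3K36 on the same histone tail hinders that enzyme. H3K27ac marks active promoters and enhancers and cannot share a lysine with H3K27me3, so peaks of both over the same window are not the same lysine. The lists were called without a control, and the background signal at windows with peaks of every mark was not measured here.

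Promoters are shown first for repeated gene copies and then for genes whose promoter sequence was not shared with another locus. All are 300 bases from RefSeq (GRCh38.p14), from 250 before to 50 after the gene start, 5′ to 3′, with CG dinucleotides in capitals. PRR20A (chr13:57140668-57140967, plus strand), TAF11L5 (chr5:17524985-17525284, plus strand), SPDYE9 (chr7:73085989-73086288, minus strand) and SPDYE11 (chr7:73057862-73058161, minus strand) belong to multi-copy families and lay in windows with all 3 marks. PSMA5 (chr1:109426399-109426698, minus strand), a subunit of the proteasome, and RAB5B (chr12:55973699-55973998, plus strand), a small GTPase of early endosomes, lay in windows with H3K36me2 and H3K27ac and little or no H3K27me3. At the PSMA5 and RAB5B promoters themselves there was no H3K36me2 peak in any of the 4 lists, so the mark lay elsewhere in their windows, while H3K27ac peaks overlapped both promoters in all 4. At the PRR20A promoter the H3K36me2 pileup was 93 in D1240A, 101 in F1295A, 83 in WT and 108 in TKO.
PRR20A: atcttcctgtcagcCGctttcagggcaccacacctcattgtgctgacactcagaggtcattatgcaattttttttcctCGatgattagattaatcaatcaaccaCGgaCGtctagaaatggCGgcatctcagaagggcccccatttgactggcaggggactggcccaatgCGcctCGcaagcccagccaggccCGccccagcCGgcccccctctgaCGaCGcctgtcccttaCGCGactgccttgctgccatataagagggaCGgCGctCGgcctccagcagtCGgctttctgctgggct
TAF11L5: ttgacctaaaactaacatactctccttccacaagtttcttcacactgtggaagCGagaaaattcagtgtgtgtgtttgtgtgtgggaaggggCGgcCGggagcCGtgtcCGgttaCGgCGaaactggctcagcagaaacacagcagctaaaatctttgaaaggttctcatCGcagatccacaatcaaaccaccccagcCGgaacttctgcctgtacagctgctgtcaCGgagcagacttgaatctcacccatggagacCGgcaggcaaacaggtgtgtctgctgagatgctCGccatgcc
SPDYE9: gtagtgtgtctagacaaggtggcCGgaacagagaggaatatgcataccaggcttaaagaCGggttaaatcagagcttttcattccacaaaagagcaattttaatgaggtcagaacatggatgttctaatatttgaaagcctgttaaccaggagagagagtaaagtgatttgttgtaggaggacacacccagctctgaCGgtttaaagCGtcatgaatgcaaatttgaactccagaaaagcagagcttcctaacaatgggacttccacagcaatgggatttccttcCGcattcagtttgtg
SPDYE11: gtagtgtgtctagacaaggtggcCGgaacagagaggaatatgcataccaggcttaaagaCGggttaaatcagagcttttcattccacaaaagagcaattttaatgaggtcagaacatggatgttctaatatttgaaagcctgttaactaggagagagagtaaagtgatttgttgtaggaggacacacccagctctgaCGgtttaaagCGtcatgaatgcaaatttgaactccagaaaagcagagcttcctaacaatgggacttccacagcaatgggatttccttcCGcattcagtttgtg
PSMA5: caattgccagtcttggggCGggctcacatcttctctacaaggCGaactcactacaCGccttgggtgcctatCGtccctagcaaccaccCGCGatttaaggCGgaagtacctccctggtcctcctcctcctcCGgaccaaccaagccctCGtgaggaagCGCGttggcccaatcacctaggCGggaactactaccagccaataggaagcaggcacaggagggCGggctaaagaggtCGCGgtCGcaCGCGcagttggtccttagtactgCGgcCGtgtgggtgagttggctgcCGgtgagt
RAB5B: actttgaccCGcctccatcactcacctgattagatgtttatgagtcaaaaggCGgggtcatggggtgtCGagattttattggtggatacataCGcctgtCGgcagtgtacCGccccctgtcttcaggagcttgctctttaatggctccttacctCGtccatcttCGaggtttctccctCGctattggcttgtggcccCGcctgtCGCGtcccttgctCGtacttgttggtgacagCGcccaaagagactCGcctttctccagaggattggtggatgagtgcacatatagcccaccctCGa
The PRR20A promoter was identical over all 300 bases to those of PRR20B, PRR20C, PRR20D and PRR20E. The TAF11L5 promoter was identical to those of TAF11L4 and TAF11L6, and SPDYE9 shared 299 of 300 bases with SPDYE11. By contrast, no stretch of 50 bases in the PSMA5 or RAB5B promoter occurred in the promoter of another locus in the table.

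A promoter was counted as shared when it held a word of 50 bases that also lay in the promoter of a gene more than 1 kb away. Of the 46 RefSeq promoters that lay in the windows, 29 (63.0%) were shared in this way, against 3.18% of all 26246 autosomal promoters. The share was 16.9% of 77 promoters in windows covered in every list except WT and 5.98% of 117 in windows covered in TKO alone. Inside the left-out blocks it was 14.1% of 629 promoters. Copies of 1 family, such as those of PRR20, TAF11L and SPDYE, were counted separately, so the 46 are not independent. Shared promoters made up 27 of the 33 promoters in windows with all 3 marks and 0 of the 5 in windows with H3K27ac and without H3K27me3. The median number of CG dinucleotides was 7 in the 46 promoters and 13 in all autosomal promoters. It was 8 in the windows covered except in WT and 13 in those covered in TKO alone. In the 33 promoters in windows with all 3 marks it was 12, so a low number was not particular to these windows. A CG was present in 97.8% of the 46 and in 95.7% of all. Fragments from copies that share a sequence cannot be assigned to 1 copy, and how such fragments were handled is not given in the sources used here, so values at the repeated loci are uncertain for any single copy.

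**Figure D1:**
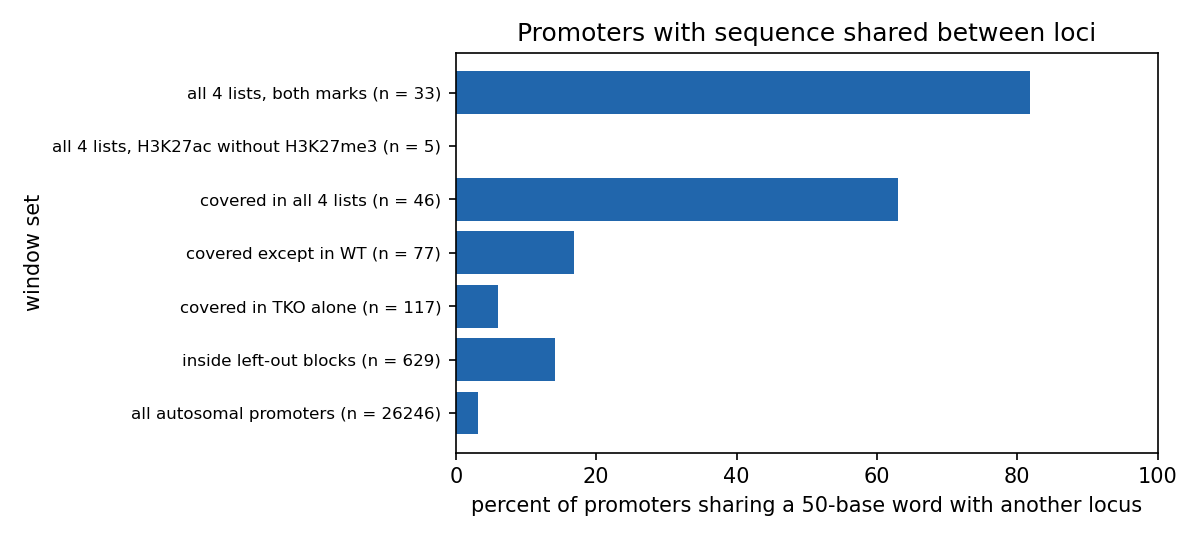
Percent of promoters (x axis) that share a word of 50 bases with the promoter of another locus, by window set (y axis, with the number of promoters). Bars are counts within the RefSeq table with no error; the windows covered in all 4 lists with both other marks stand at 81.8%, and all autosomal promoters at 3.18%.

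H3K36me2 covered a median of 80.0% of a window in D1240A, 84.7% in F1295A, 77.2% in WT and 85.5% in TKO. The median of the highest pileup, the number of fragments over the summit of the highest peak that overlaps a window, was 44 in D1240A, 47 in F1295A, 43 in WT and 48 in TKO. Scaled to 1000000 kept fragments these were 0.681 in D1240A, 0.679 in F1295A, 0.687 in WT and 0.696 in TKO, so the medians lay close together on a common depth scale. The lists rest on 64588375 kept fragments in D1240A, 69211726 in F1295A, 62550152 in WT and 69008405 in TKO. The limit of the rule cut through a continuous range: the 3 members nearest to it had a lowest coverage of 50.03%, 50.19% and 50.27%, and the 3 nearest windows outside had 49.96%, 49.96% and 49.94%. There were 87 members with a lowest coverage under 55% and 103 windows outside with one of at least 45%.

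The other marks entered the rule only through the blocks left out. H3K27ac peaks touched 460 of the 468 windows (98.3%) in all 4 of their lists, and H3K27me3 peaks touched 403 (86.1%) in all 4 of theirs. Among the 478 windows covered in every H3K36me2 list except WT, H3K27ac touched 94.6% in all 4 lists and H3K27me3 15.1%. Among the 861 windows covered in TKO alone these shares were 80.3% and 7.20%. Among the 1583 windows covered in other combinations of 1 to 3 lists, H3K27ac touched 75.4% and H3K27me3 41.1%, the share of H3K27me3 nearest to that of the windows covered in all 4. Among the 74241 windows with some H3K36me2 but under the limit the shares were 24.6% and 10.2%, and among the 200477 windows with no H3K36me2 peak 4.82% and 0.352%. Peaks of all 12 lists touched 397 windows (84.8%), against 14.6% of those covered except in WT and 31.0% of those covered in other combinations of 1 to 3 lists. The blocks were left out for coverage in all 12 lists, so the densest shared regions are not in these counts.

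By extent, H3K27ac covered a median of 48.3% of a window in D1240A, 56.0% in F1295A, 48.9% in WT and 51.3% in TKO. H3K27me3 covered a median of 62.5% in D1240A, 63.5% in F1295A, 66.6% in WT and 71.3% in TKO. In the windows covered except in WT, the H3K27me3 median was 0 in each of the 4 lists, while the H3K27ac medians lay between 43.2% in WT and 50.4% in TKO. The H3K27ac peaks were higher there, although their extent was similar. Their median highest pileup was 192 in D1240A, 166 in F1295A, 177.5 in WT and 200 in TKO. In the windows covered in all 4 lists it was 48 in D1240A, 55 in F1295A, 51 in WT and 58 in TKO. The H3K27me3 lists differ in depth, with 33219802 kept fragments in D1240A, 31097592 in F1295A, 44812488 in WT and 41788534 in TKO, and the part of this in the differences between them was not tested.

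**Figure D2:**
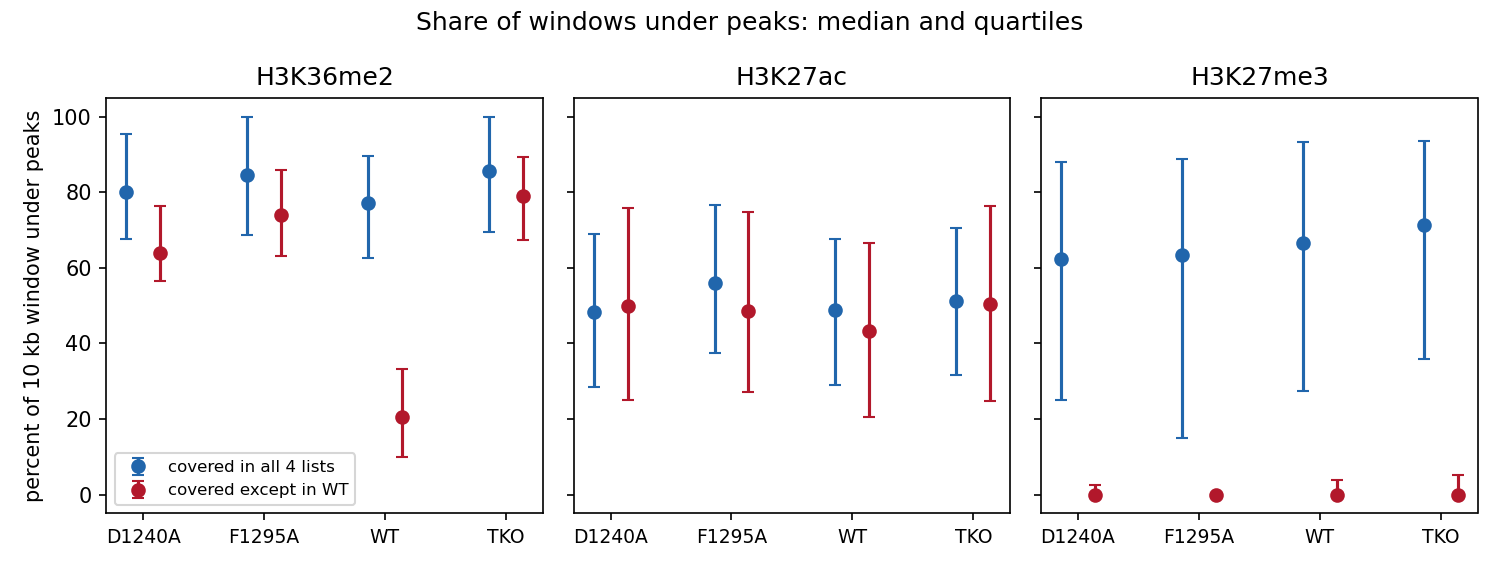
Percent of each 10 kb window under peaks (y axis) by condition (x axis) and mark (panels), for the 468 windows covered in all 4 lists (blue) and the 478 covered in all but WT (red). Points are medians and bars run from the lower to the upper quartile over windows, which is not replicate error. The sets overlap in H3K27ac coverage and separate in H3K27me3 coverage, where the red medians are 0. Peak height is not shown.

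The windows were then grouped by the other marks, with a limit of 10% of the window under peaks that was chosen after the values were seen. Both marks reached the limit in every list in 333 windows (71.2%). H3K27ac reached it in every list, and H3K27me3 in none, in 45 windows (9.62%). The reverse held in 1 window, on chromosome 2, and 89 windows varied between lists. In the windows covered except in WT the order was turned round, with both marks in 24 (5.02%) and H3K27ac without H3K27me3 in 338 (70.7%). In the 333 windows with both marks the fold enrichment, the pileup plus 1 over a constant of each file, had a median for H3K27ac of 7.71 in D1240A, 8.90 in F1295A, 7.56 in WT and 8.55 in TKO. In the 45 windows without H3K27me3 it was 51.4 in D1240A, 46.7 in F1295A, 48.7 in WT and 54.5 in TKO. The H3K27ac peaks of the smaller class were therefore several times higher than those of the larger one in every condition.

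**Figure D3:**
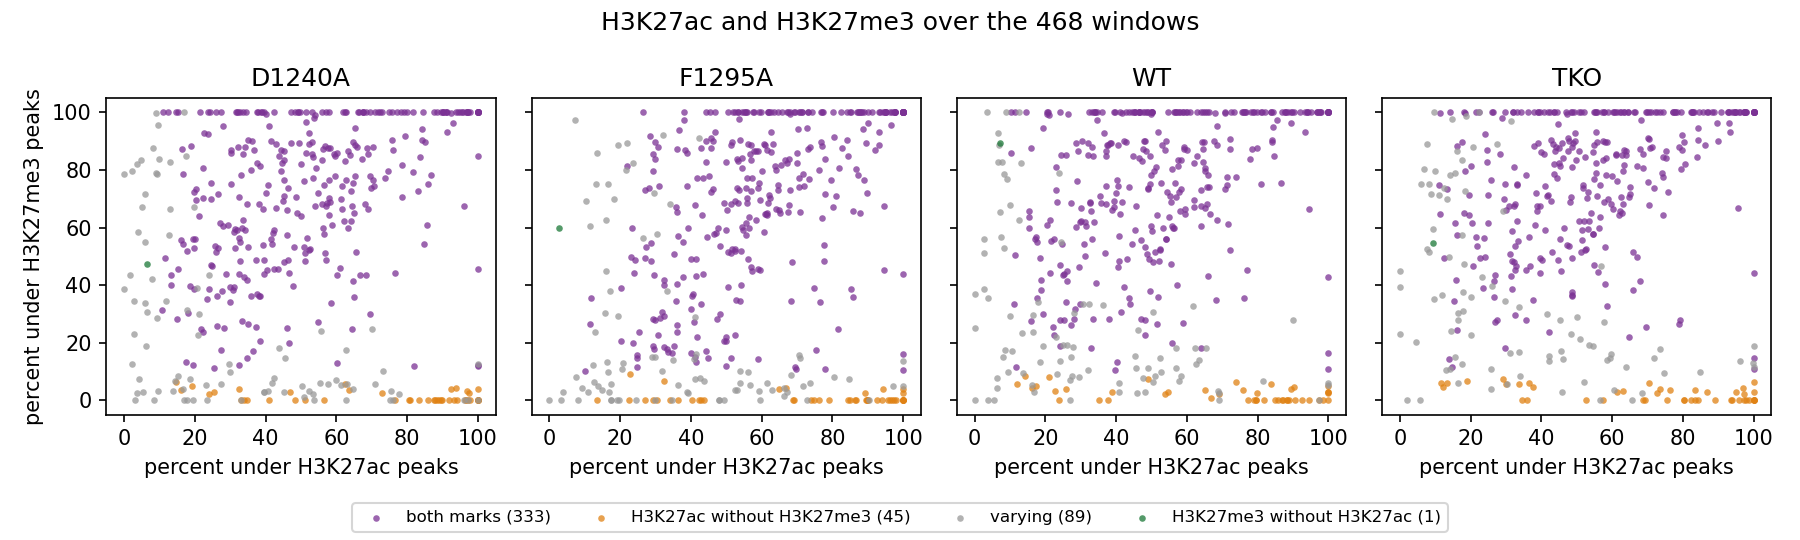
Percent of each of the 468 windows under H3K27ac peaks (x axis) and H3K27me3 peaks (y axis) in each condition (panels), coloured by class. Each point is 1 window; the 333 windows with both marks fill the upper part of each panel, and the 45 with H3K27ac and without H3K27me3 lie along the bottom.

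Across the 468 windows, with a window without a peak of the second mark set to 0, the H3K36me2 fold enrichment ran with that of H3K27me3, with a Spearman rho of 0.814 in D1240A, 0.759 in F1295A, 0.899 in WT and 0.776 in TKO. With H3K27ac, rho was 0.475 in D1240A, 0.530 in F1295A, 0.339 in WT and 0.566 in TKO. Neighbouring windows share peaks, and all points share sequence and copy number between marks, so these are descriptions without a p. The highest pileups fell on windows without an annotated gene. The window at chr1:125170001-125180000 had an H3K36me2 pileup of 21240 in D1240A, 21362 in F1295A, 23907 in WT and 21156 in TKO. It also had the highest lowest-of-4 H3K27ac fold enrichment, 3551 in D1240A, 3804 in F1295A, 3723 in WT and 3526 in TKO. Next came chr3:93470001-93480000, with H3K36me2 pileups of 12754 in D1240A, 12381 in F1295A, 13191 in WT and 13082 in TKO. Both windows were high in every H3K36me2 and H3K27ac list, and the lists were called without the inputs.

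The 468 windows joined into 234 runs, of which 139 were single windows and 20 held at least 5 windows. The longest, 130 kb at chr7:73010001-73140000, spanned SPDYE8, SPDYE11, SPDYE9 and SPDYE10, members of the Speedy family, which is named for activators of cyclin-dependent kinases, and several PMS2 pseudogenes. This run lies inside a block that is left out when block coverage is counted on merged peaks, or from 5%, and then none of its windows is a member. Its mean H3K36me2 coverage was 93.1% in D1240A, 95.4% in F1295A, 91.0% in WT and 93.1% in TKO. H3K27me3 covered 74.0% of it in D1240A, 77.5% in F1295A, 78.3% in WT and 80.9% in TKO. A second Speedy cluster at chr7:75280001-75360000 (SPDYE14, SPDYE13 and SPDYE15) and the NPIPB13 locus at chr16:30210001-30290000, from the nuclear pore complex interacting protein family, were among the next longest. The runs at chr14:18090001-18170000, chr14:18010001-18080000 and chr21:10410001-10480000 held no protein-coding gene in the annotation.

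The SRGAP2 run at chr1:206210001-206280000 and the SNAR run at chr19:47900001-47960000 completed the 10 longest together with those on chromosomes 4 and 7 given next. The SNAR run was 1 of 5 runs of 6 windows and was taken for its pileup, the highest of these by the lowest of 4 lists scaled to kept fragments. H3K27me3 covered 92.5% of it in D1240A, 92.1% in F1295A, 93.8% in WT and 92.1% in TKO. Among the 9 runs of at least 7 windows, 1 had almost no H3K27me3. At chr4:184310001-184380000, which holds MYL12BP2 and the lncRNAs LINC02363 and LINC02362, H3K27me3 covered 3.0% in D1240A, 3.1% in F1295A, 3.3% in WT and 6.2% in TKO. H3K27ac covered 86.3% of that run in D1240A, 86.5% in F1295A, 81.5% in WT and 85.8% in TKO. Its H3K36me2 coverage was 95.1% in D1240A, 96.5% in F1295A, 66.6% in WT and 93.4% in TKO, with WT the lowest. The TYW1B run at chr7:72580001-72660000 was also low in H3K27me3, at 9.3% in D1240A, 5.1% in F1295A, 14.1% in WT and 26.9% in TKO.

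**Figure D4:**
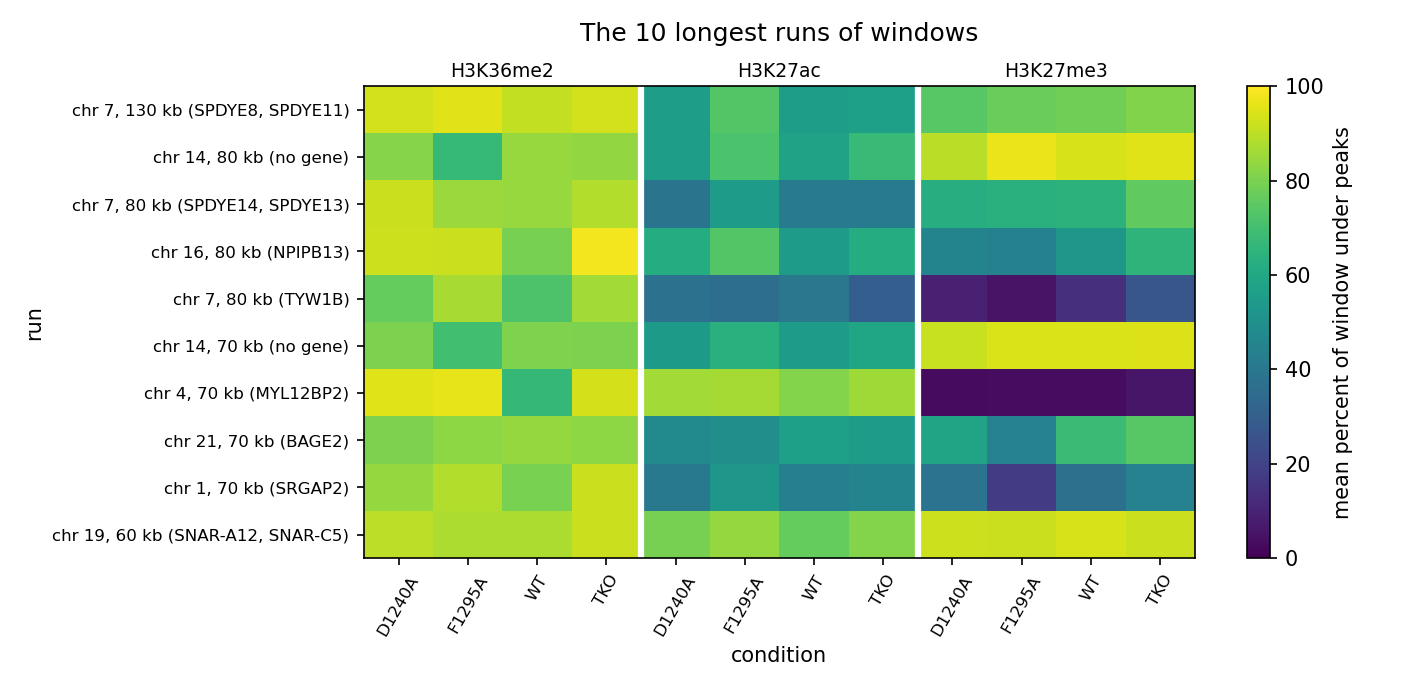
Mean percent of the windows under peaks (colour, 0 to 100) in the 10 longest runs (rows, with chromosome, length and up to 2 genes) for each condition and mark (columns). All rows are high in H3K36me2, which chose them; the TYW1B and MYL12BP2 rows are dark in H3K27me3.

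Runs were spread unevenly. The share of windows that were members was highest on chromosome 21 (0.679%), chromosome 22 (0.594%), chromosome 16 (0.433%) and chromosome 19 (0.403%). Near the left-out blocks, 147 members (31.4%) lay within 1 Mb of one, against 2.27% of all windows, and 230 (49.1%) lay within 5 Mb, against 10.3%. The blocks were chosen by coverage in lists that include those that chose the members, so nothing is read from this nearness. Of the 45 windows with H3K27ac and without H3K27me3, 4 lay within 1 Mb.

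Protein-coding genes were sparser in the windows than in those covered in every list except WT. Of 18973 autosomal protein-coding genes 91 were touched (0.480%), against 149 (0.785%) for the 478 windows covered except in WT. The 468 windows were 0.168% of those outside the blocks, and 34 genes lay inside them entirely. Protein-coding gene bodies took up 27.7% of the bases, against 43.7% in windows covered except in WT, 54.3% in those covered in TKO alone and 40.5% in windows with no H3K36me2 peak. No annotated gene of any kind was touched by 181 windows (38.7%). In the 333 windows with both marks the protein-coding share was 22.6%, and in the 45 without H3K27me3 it was 60.9%.

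Copies of several repeated families lay in the windows, and these families were picked after their values were seen. The 5S ribosomal RNA genes (RNA5S), which encode a small RNA of the large ribosomal subunit, were touched in 17 of 17 annotated copies. Small NF90-associated RNAs (SNAR) were touched in 21 of 28, PRR20 genes in 5 of 6, USP17L deubiquitinase genes in 16 of 29, TAF11L genes in 7 of 14, DUX4-like copies (DUX4L) in 21 of 47, SPDYE genes in 10 of 23 and NPIP genes in 9 of 23. Other families had 1 copy touched, GTF2IP in 1 of 20, SRGAP2 in 1 of 5 and FAM72 in 1 of 4. Olfactory receptor (OR) genes were touched in 3 of 861 and genes named ZNF and a number alone in 0 of 468. HOX genes were touched in 0 of 39 and histone genes in 0 of 78. Over all annotated genes, 0.480% of protein-coding genes and 0.417% of pseudogenes were touched, so a count of 0 in 39 or 78 genes says little. At the window of RNA5S1 to RNA5S5, chr1:228610001-228620000, the H3K36me2 pileup was 76 in D1240A, 70 in F1295A, 64 in WT and 77 in TKO, and H3K27ac and H3K27me3 each covered all of it in every list. Over the PRR20 genes the highest H3K36me2 pileup was 93 in D1240A, 101 in F1295A, 83 in WT and 108 in TKO.

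By bases in the windows, TYW1B, a paralogue of a wybutosine synthesis enzyme for transfer RNA, led with 180 kb, or 71.0% of the gene. Its highest H3K36me2 pileup was 70 in D1240A (exact Poisson 95% interval 54.6 to 88.4, for counting error only), 66 in F1295A (51.0 to 84.0), 40 in WT (28.6 to 54.5) and 66 in TKO (51.0 to 84.0). These pileups are not scaled for depth. The same lists chose the windows, so nothing is read from the differences between conditions. SRGAP2, a regulator of neuronal migration with partial copies on the same chromosome, followed with 140 kb. TTC34 had 60 kb, and H3K27me3 covered a mean of 96.0% of its windows in each of the 4 lists. NOS1AP and C2orf78 were the last of the 15 genes with the most bases, with 20 kb each. LPA, the gene of apolipoprotein(a), had 40 kb, with an H3K36me2 pileup of 59 in D1240A, 55 in F1295A, 68 in WT and 52 in TKO.

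Some genes outside those families lay at least in part in windows with H3K27ac and without H3K27me3. IRF2, a transcription factor of the interferon response, had 40 kb in the windows. Its highest H3K27ac pileup was 694 in D1240A, 614 in F1295A, 594 in WT and 664 in TKO, and its H3K36me2 pileup was 51 in D1240A, 52 in F1295A, 41 in WT and 47 in TKO. DUSP22, a dual-specificity phosphatase, had an H3K36me2 pileup of 63 in D1240A, 63 in F1295A, 48 in WT and 100 in TKO. IL19, a cytokine of the interleukin-10 family, had 40 in D1240A, 48 in F1295A, 36 in WT and 51 in TKO. In all 3 genes the WT pileup was the lowest of the 4, but pileups are not scaled for depth. The WT list had the fewest kept H3K36me2 fragments, 62550152. By exact Poisson intervals, for counting error only, WT overlapped every other list at IRF2 (29.4 to 55.6 in WT) and IL19 (25.2 to 49.8). At DUSP22 it overlapped D1240A and F1295A, but not TKO (35.4 to 63.6 in WT, 81.4 to 122 in TKO). Nothing is read from this order or from the overlap of the intervals, since the same lists chose the windows. OTOGL, PDXDC1, CBX5, UCK2, FGGY, SDC2 and MAPKAPK2 also had windows of this class.

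Of 558 measured genes in 19 lists of pathways and cell types, 2 were touched (0.358%, against 0.480% of all protein-coding genes). They were PSMA5 in the proteasome list, 1 of 34, and CDK2, a kinase of the cell cycle, 1 of 30. At PSMA5 the H3K36me2 pileup was 29 in D1240A, 33 in F1295A, 22 in WT and 29 in TKO, and the H3K27ac pileup 391 in D1240A, 388 in F1295A, 323 in WT and 369 in TKO. CDK2 and RAB5B share 1 window, with an H3K36me2 pileup of 30 in D1240A, 37 in F1295A, 29 in WT and 35 in TKO. No gene was touched in the plasma cell (25 measured), t(4;14) myeloma (14), ribosomal protein (62), HOX (39), cell adhesion (51) or focal adhesion (28) lists. With 0.480% of all protein-coding genes touched, a count of 0 in lists of these sizes says little. NSD2 itself, over 12 windows, had no H3K36me2 peak in any list and no member, and H3K27ac touched 5 of its windows in D1240A, 6 in F1295A, 6 in WT and 5 in TKO. As a check of the label, H3K27ac lay within 1 kb of a gene end in all 4 lists for 7 of 8 plasma cell markers (SDC1 had none), against 0 of 4 B cell, 1 of 4 T cell (CD3E), 0 of 2 NK cell and 0 of 4 myeloid markers.

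Conditions were compared window by window as D1240A against WT, F1295A against WT and WT against TKO, which share the WT lists. For H3K36me2 height scaled to kept fragments a window was called at a fold of at least 1.5. D1240A was higher than WT in 11 of 468 windows and lower in 19 (backgrounds over all windows with a peak in both lists, 3.68% and 5.97%). F1295A was higher than WT in 12 and lower in 44 (2.2% and 11.2%). WT was higher than TKO in 37 and lower in 22 (9.48% and 4.48%). These heights come from the lists that chose the windows, and nothing is read from the counts.

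The classes differed in these ratios, as a description. In the 45 windows with H3K27ac and without H3K27me3, the median log2 ratio was 0.30 for D1240A against WT (above 0 in 43 of 45), 0.31 for F1295A against WT (42 of 45) and -0.36 for WT against TKO (3 of 45). In the 333 windows with both marks it was -0.11 for D1240A against WT (100 of 333), -0.23 for F1295A against WT (86 of 333) and 0.12 for WT against TKO (218 of 333). Over all windows with a peak in both lists the medians were -0.05 for D1240A against WT, -0.09 for F1295A against WT and 0.07 for WT against TKO. Nothing is read from these ratios either, since the same lists chose the windows. Neighbouring windows share peaks, so the counts above 0 are not of independent windows, and no such count over all windows is given. The height of a window is that of the highest peak touching it, also where the summit lies in the next window. At chr21:7930001-7940000 the H3K36me2 pileup was 66 in D1240A, 83 in F1295A, 1333 in WT and 1424 in TKO, while the H3K27ac pileup there was 61 in D1240A, 1308 in F1295A, 55 in WT and 62 in TKO. In the window just before it, the H3K36me2 pileup was 1419 in D1240A, 1415 in F1295A, 1333 in WT and 1424 in TKO, with no such gap between the lists.

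**Figure D5:**
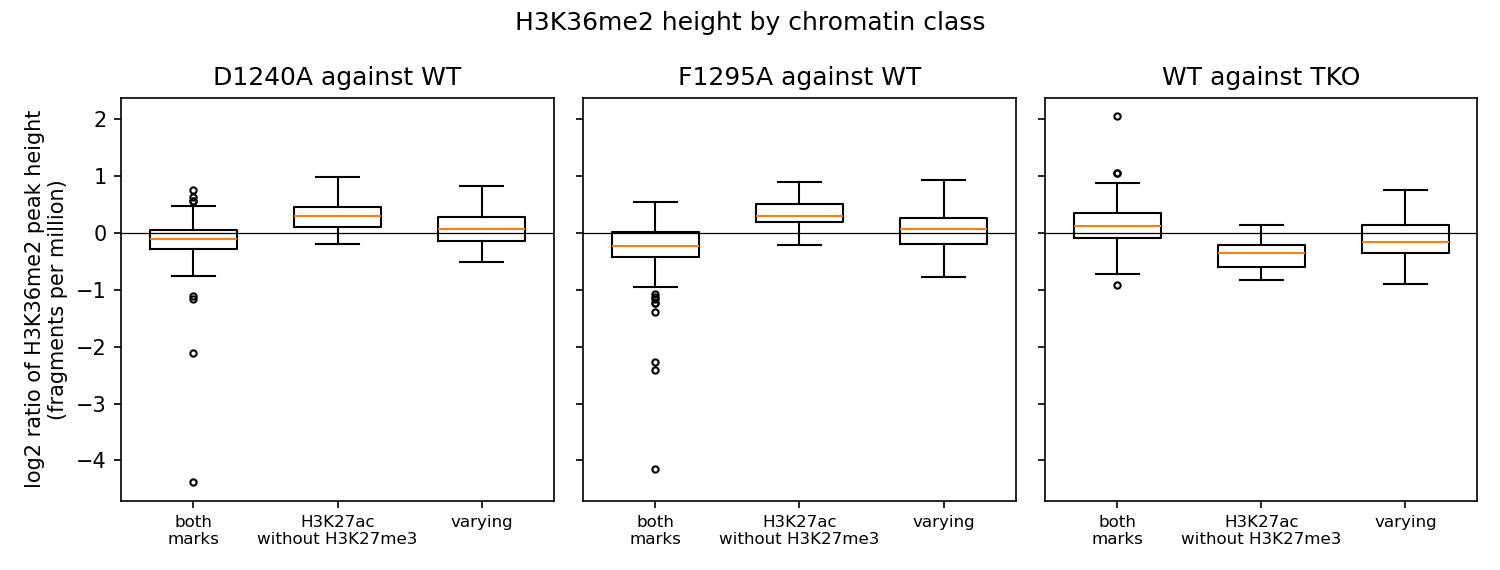
Log2 ratio of H3K36me2 peak height scaled to kept fragments (y axis) by class (x axis) for the 3 contrasts (panels). Boxes are quartiles over windows with the median as a line, whiskers reach 1.5 times the box and points lie beyond. The class without H3K27me3 has medians of 0.30, 0.31 and -0.36. The same lists chose the windows, so nothing is read from these ratios.

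For H3K27ac and H3K27me3 a window was called where the share under peaks differed by at least 25 percentage points. The background was counted over windows with any coverage in either list, and again, by a choice made after the first counts were seen, over windows with at least 25% covered in either list, since the others cannot reach the limit. H3K27ac was higher in F1295A than in WT in 25 of 467 windows, 5.35% against a background of 0.19%, and lower in 1 (background 0.0206%). Over windows that could reach the limit this was 5.92% against 0.761% higher and 0.237% against 0.0825% lower. Over all 467 windows the median difference was 7.19 points (quartiles 0 and 13.18), against 0.7 points in the wider background. The 25 windows are thus the upper end of a broader shift. The backgrounds were not matched for H3K27ac peak height, and its part in these differences was not tested. The 25 windows included those of SPDYE11, SPDYE9, NPIPB12, NPIPB13 and SRGAP2. Both marks were present in 20 of the 25, and in 71.2% of all 468 windows. SPDYE9 and SPDYE11 share 299 of 300 promoter bases, and neighbouring windows share peaks, so the 25 are not independent. At the SPDYE9 window H3K27ac covered 51.4% in D1240A, 82.5% in F1295A, 50.2% in WT and 50.7% in TKO, so F1295A alone was high there. H3K27ac was higher in D1240A than in WT in 2 windows and lower in 4 (backgrounds 0.23% and 0.0342%, or 0.905% and 0.134% of windows that could reach the limit). It was higher in WT than in TKO in 2 windows and lower in 0 (0.0591% and 0.282%, or 0.23% and 1.1%).

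For H3K27me3 the choice of background decided how the members compared. D1240A had less H3K27me3 coverage than WT in 25 of 448 windows, 5.58%, which was above the background of 1.57% over windows with any coverage. Among windows that could reach the limit it was 6.85%, below the background of 16.3%. F1295A was lower than WT in 31 of 445 windows, 6.97% against 1.66%, and 8.61% against 16.2% among windows that could reach the limit. WT was lower than TKO in 31 of 451 windows, 6.87% against 0.844%, and 8.12% against 9.1%. In the other direction H3K27me3 was higher in D1240A than in WT in 9 windows (backgrounds 0.202% and 2.09%), in F1295A than in WT in 4 (0.332% and 3.24%) and in WT than in TKO in 6 (0.694% and 7.48%). No excess of H3K27me3 differences in these windows is therefore read from the wider background.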

How the data were processed

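The 12 peak lists of H3K36me2, H3K27ac and H3K27me3 were used. Per the submitters' processing notes the tools were Trimmomatic 0.36, FastQC 0.11.4, Bowtie2 2.4.5 and MACS2 2.2.7.1, and the build was GRCh38. Both replicates of a condition went into each list, which per the file headers was called with paired-end fragments, a q limit of 0.05, no local background and no control. Per the file headers, 31097592 to 73613753 fragments per list were kept after 61% to 87% were removed as duplicates. The deposited pileup is a coverage signal, the fragments over a summit, not scaled for depth by the authors. The deposited fold enrichment is a ratio, the pileup plus 1 over a constant per file, checked from the values. The deposited -log10 q values, per the file headers set against a genome-wide background, serve only as a stricter limit.

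Peaks less than 1 kb apart were joined for H3K36me2 and H3K27me3, coverage was counted in windows of 10 kb, and blocks were counted on peaks as listed. Genes and promoters came from RefSeq tables of GRCh38.p14, from which 153 protein-coding genes on separate scaffolds were left out. Members and gene lists were chosen with earlier results of these data known. The genes and regions named are the 10 longest runs, the windows with the highest lowest-of-4 values, the 15 genes with most bases in members, every list gene touched and NSD2. Others were chosen after their values were seen, among them the multi-copy families, the genes shown beside these, and the windows with the lowest ratios. The 10% class limit was also set after seeing the values. For differences in H3K27ac and H3K27me3 coverage, the plan did not fix which windows to count. Windows with any coverage in either list were used first. After those counts were seen, windows with at least 25% covered in either list were added, and both are given. Poisson intervals at 95% cover counting error only. The steps were tested on simulated data and used matplotlib 3.10.9, SciPy 1.17.1, pandas 2.3.3, numpy 2.4.6 and Python 3.11.15.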

Additional observations from a re-analysis of the deposited data

How the results depend on the processing

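No paired analysis was possible because each list holds both replicates of a condition, and for the same reason no replicate could be left out. Of 233 recomputed values 156 stayed within the counting interval of the value given or, for counts, within 1.5 times of it, and 77 moved. Of 120 values for the 10 longest runs 91 stayed within 1.5 times and 29 moved. With blocks left out from 5%, the runs of SPDYE8, SRGAP2 and SNAR, both runs on chromosome 14 and the run on chromosome 21 had 0 members. With blocks counted on merged peaks, chosen after seeing the data, the SPDYE8 run had 0 members in place of 13, and the whole set had 431 windows and 85 genes, with no other result moved. Without merging there were 261 windows and 53 genes, median H3K36me2 heights of 1.01 fragments, scaled to kept fragments, in WT and 0.942 in TKO, H3K27ac and H3K27me3 in all lists in 99.6% and 94.3%, both marks in 88.5%, and H3K27me3 differences in 4.67% for D1240A against WT and 5.45% for F1295A against WT. Merging within 3 kb gave 1249 windows and 252 genes, heights of 0.477 in F1295A, 0.496 in WT and 0.507 in TKO, the marks in 88.3% and 69.0%, both in 38.8%, and H3K27ac differences for F1295A against WT in 3.34%. A limit of 25% gave 1398 windows and 298 genes, the marks in 89.6% and 76.5%, both in 44.3%, and H3K27ac differences for F1295A against WT in 3.26%. A limit of 75% gave 163 windows and 40 genes, heights of 1.02 in WT and 0.971 in TKO, the marks in 100% and 95.1%, both in 92.6%, H3K27me3 differences of 3.70% for D1240A against WT and 4.97% for F1295A against WT, and H3K27ac differences of 0 for WT against TKO. A -log10 q of at least 5 gave 277 windows and 59 genes, heights of 0.929 in D1240A, 1.06 in WT and 0.971 in TKO, the marks in 94.6% and 90.6%, both in 77.6%, H3K27ac differences of 3.28% for D1240A against WT, 8.36% for F1295A against WT and 2.90% for WT against TKO, and H3K27me3 differences of 4.15% for WT against TKO. Equal H3K36me2 length gave H3K27ac in 99.5%. With no block left out there were 5308 windows and 405 genes, heights of 1.30 in D1240A, 1.10 in F1295A, 1.69 in WT and 1.25 in TKO, the marks in 99.7% and 95.9%, both in 89.8%, H3K36me2 differences of 14.2% for D1240A against WT, 39.0% for F1295A against WT and 25.5% for WT against TKO, H3K27me3 differences of 4.49% for D1240A against WT, 5.47% for F1295A against WT and 4.39% for WT against TKO, and H3K27ac differences of 2.28% for WT against TKO. Blocks left out from 5% gave 243 windows, H3K27me3 in 78.6%, both marks in 63.4%, H3K36me2 differences of 4.12% for D1240A against WT and 8.64% for F1295A against WT, and H3K27me3 differences of 4.41% for F1295A against WT. Asking for 10% of the window gave H3K27ac in 91.0% and H3K27me3 in 77.1%, and asking for 50% of the gene body gave 50 genes. Among alternatives chosen after seeing the data, leaving out members within 1 Mb of a block gave H3K27me3 in 81.9% and H3K27me3 differences of 4.98% for F1295A against WT, leaving out multi-copy families gave both marks in 66.4% and 46 genes, and 1 bp of each mark gave both in 84.8%. Counting only windows that could reach the 25 point limit kept each share of differences within its counting interval in the members, but changed the background beside it, as given with the H3K27me3 contrasts. The cause of these shifts was not tested. The number of windows depends most on merging, the coverage limit and the blocks. Depth limits what a list at 0 shows, since a list holds only peaks past its limit.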

Other observations

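Outside the autosomes, 12 of 15604 windows of 10 kb on chromosome X lay at least 50% under H3K36me2 peaks in all 4 lists, and all 12 were touched by H3K27ac and H3K27me3 in all lists. In the immunoglobulin heavy chain locus, the window at chr14:105580001-105590000, which holds IGHA2, had an H3K36me2 pileup of 312 in D1240A, 289 in F1295A, 217 in WT and 341 in TKO, and H3K27ac covered all of it in each list. By kind of gene, 29 of 146 annotated snRNA genes and 17 of 29 rRNA genes were touched by the 468 windows, against 49 of 17525 lncRNA genes (0.280%). These are mostly the repeated families given above: the rRNA genes were the 17 RNA5S copies, and 21 of the snRNA genes were SNAR copies. The other snRNA genes touched lay close together on chromosome 17.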
